A study of Mus musculus with 10 samples.

Results

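The 10 transcription factors described here are the zinc finger proteins *Snai1* and *Snai2*, the zinc finger homeodomain proteins *Zeb1* and *Zeb2*, the basic helix-loop-helix proteins *Twist1* and *Twist2*, the paired-related homeobox proteins *Prrx1* and *Prrx2*, and the odd-skipped zinc finger proteins *Osr1* and *Osr2*. They were chosen by name, and all 10 were found among the 23197 genes of the count table used here. Snail, Zeb and Twist proteins drive the epithelial-mesenchymal transition (EMT), in which epithelial cells lose their junctions and become motile. *Snai* and *Zeb* factors bind E-boxes in the promoters of epithelial genes such as the adhesion gene *Cdh1* and repress them. *Prrx* and *Osr* factors pattern the mesenchyme of limb, face, joints and kidney, and they are expressed in embryonic fibroblasts. The way back, the mesenchymal-epithelial transition, is a step of many reprogramming routes.

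Here mouse embryonic fibroblasts (MEFs), taken from mid-gestation ICR embryos after removal of head, limbs and viscera, were turned by small molecules into cells like those of the extraembryonic endoderm (XEN-like cells). Cells at d0 were MEFs, and all later cells had received a cocktail that the labels name C6FAE (CHIR99021, the TGF-β receptor inhibitor abbreviated 6, Forskolin, AM580 and EPZ004777) in medium with basic fibroblast growth factor. The general protocol of the study also lists valproic acid, which the label of these cells does not. Sampling took place on days 0, 1, 2, 3, 4, 5, 6, 8, 12 and 20 (named d0 to d20) by hand picking of single cells, with d8c and d12c for cells taken from colonies on days 8 and 12. Cells of day 6 are named d6p in the table, with no explanation of the p. A MEF preparation is a mixture of cells by its making, and neither the number of embryos nor that of cultures is given.

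Cells were compared by the mean of their CPM, which are the unique molecular identifiers (UMIs) of a gene scaled so that all genes of a cell sum to 1000000. With at least 4000 detected genes, 670 of 808 cells were kept, and their median depth was lowest at d20 (195480 UMIs) and highest at d2 (1055206 UMIs). The filter left out 34 of 72 cells at d20 and 45 of 96 at d12c, more than at any other time. The median share of counts from ERCC spike-in RNAs ran from 2.58% at d1 to 19.4% in d12c cells numbered 49 to 96. The 10 batches of the labels cannot be tied to cells, so all cells count as 1 sample, no test between time points was possible, and intervals (95%) cover counting error only. As a look at unlabelled batches, cells numbered 1 to 48 and above 48 within a time point were set side by side. Kept d12c cells fell into numbers 1 to 24 (early d12c, 21 cells) and 49 to 96 (late d12c, 30 cells), and these are given apart because their marker levels differed. The summed level of 10 fibroblast markers had medians of 3071 (d0), 5459 (early d12c), 31.6 (late d12c) and 46.6 CPM (d20). That of 10 XEN markers was 1.02, 171, 5201 and 5454 CPM in the same order. At d20 the fibroblast markers differed, with *Postn* and *Dcn* at 0 and *Fbn1* and *Thy1* at 76.4% and 27.0% of their d12 means. The median fibroblast marker was at 0.667%. Markers of other cells were present at varying levels, with group sums from 6.24 CPM (lowest) to 50 CPM (early d12c) for 4 leukocyte genes, 2.14 to 36.7 for 5 endothelial genes, 1.20 to 549 for 5 skeletal muscle genes, 14.3 to 131 for 5 neural and glial genes and 22.9 to 237 for 5 genes of surface epithelium. Skeletal muscle markers were highest in early d12c (549 CPM) and at d0 (346 CPM), and the part of these cells in the levels below was not tested.

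On the mm9 build, *Snai1* lies on the plus strand at chr2:167363695-167368314, and *Snai2* on the plus strand at chr16:14705945-14709488. *Zeb2* spans chr2:44839154-44972915 on the minus strand. *Twist1* (chr12:34642536-34644682) and *Twist2* (chr1:93698038-93744605) are on the plus strand, as are *Prrx2* (chr2:30690492-30736761), *Osr1* (chr12:9581248-9588305) and *Osr2* (chr15:35225853-35233059). *Prrx1* spans chr1:165175247-165243841 on the minus strand. Noncoding genes overlap *Zeb2* (*Gm13476* on the opposite strand and *AL929120.1* on the same) and *Prrx1* (*Gm20471* on the opposite strand and *Gm17698* on the same). Reads of these genes may be mixed with those of the factors, on the opposite strand only if counting did not use the strand, which is not stated.

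The E-box CACCTG (or CAGGTG on the other strand) is the sequence that Snail and Zeb factors bind, and it was looked up in the 250 bases before the start of genes (RefSeq, GRCm38.p6). Windows were found for 6 of the 10 factors, of which only *Snai1* held a match, and for 12 of 20 epithelial genes chosen as targets that EMT factors repress, of which 10 held at least 1. Among 10 of 20 mesenchymal effector genes with a window, 1 held a match. Of all 27025 genes with a window, 19.4% held a match, and of all 32851 windows, 17.2%. A match in letters is a description and does not show binding. The windows of *Snai1* and of 4 epithelial genes whose levels are given below are shown 5′ to 3′ on the strand of the gene, ending at the base before its start, with the E-boxes in capitals. They lie at chr2:167537945-167538194 (plus strand) for *Snai1*, chr17:87635729-87635978 (plus) for the adhesion gene *Epcam*, chr17:23679115-23679364 (plus) for the tight junction gene *Cldn6*, chr17:57061951-57062200 (plus) for the polarity gene *Crb3* and chr15:102004343-102004592 (minus) for the keratin gene *Krt8*.
Snai1: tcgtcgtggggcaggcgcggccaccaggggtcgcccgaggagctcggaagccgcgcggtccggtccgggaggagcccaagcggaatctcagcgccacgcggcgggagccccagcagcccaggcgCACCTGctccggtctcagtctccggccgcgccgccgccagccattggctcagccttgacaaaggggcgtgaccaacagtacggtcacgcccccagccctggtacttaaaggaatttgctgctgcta
Epcam: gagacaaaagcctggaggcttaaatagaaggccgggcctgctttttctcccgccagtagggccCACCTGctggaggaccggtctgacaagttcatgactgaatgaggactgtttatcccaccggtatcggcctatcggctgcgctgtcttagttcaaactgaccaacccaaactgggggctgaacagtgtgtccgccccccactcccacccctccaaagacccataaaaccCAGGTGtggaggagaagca
Cldn6: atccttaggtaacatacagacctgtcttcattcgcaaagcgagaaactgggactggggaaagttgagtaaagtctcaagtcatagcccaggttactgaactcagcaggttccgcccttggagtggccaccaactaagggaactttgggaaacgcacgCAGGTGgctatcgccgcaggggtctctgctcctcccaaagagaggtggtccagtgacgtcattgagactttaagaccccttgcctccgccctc
Crb3: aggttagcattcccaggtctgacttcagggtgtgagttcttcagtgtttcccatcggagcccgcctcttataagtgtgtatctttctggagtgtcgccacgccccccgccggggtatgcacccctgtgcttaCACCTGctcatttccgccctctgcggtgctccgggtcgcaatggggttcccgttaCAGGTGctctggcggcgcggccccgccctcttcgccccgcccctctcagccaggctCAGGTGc
Krt8: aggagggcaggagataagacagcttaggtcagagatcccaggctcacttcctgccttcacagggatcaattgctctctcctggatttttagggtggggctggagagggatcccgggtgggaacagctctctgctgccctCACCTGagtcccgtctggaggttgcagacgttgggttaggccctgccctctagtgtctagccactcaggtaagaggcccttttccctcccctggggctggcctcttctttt
*Snai1* and *Cldn6* held 1 E-box each, beginning 126 and 93 bases before the start. *Epcam* held 2 (187 and 19 bases before the start), *Crb3* 3 (118, 63 and 7) and *Krt8* 1 (111). The palindromes TGACGTCA, bound by CREB proteins that Forskolin activates through cyclic AMP, and CATATG, an E-box of Twist dimers, were found in no window of the 6 factors, against 1.77% and 3.98% of all genes with a window. Of the 12 epithelial genes, 3 held TGACGTCA (*Cldn6*, *Cldn7* and *Rab25*) and 0 held CATATG, and of the 10 effector genes 0 held either.

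At d8 the means of *Twist1*, *Snai2* and *Osr2* stood past 4-fold above those of MEFs, and no factor stood past 4-fold below. At earlier times *Twist2* (d1 and d2), *Snai1* (d3 and d5) and *Prrx2* (d3) had been past 4-fold above, and *Zeb1* was so in d8c. The share of all genes past 4-fold was not computed for d1, d2, d3, d5 and d8c. *Twist1*, a regulator of cranial and limb mesenchyme, had a mean of 25.9 CPM at d0 (lowest cell 0, median 9.48, highest 400, n = 72 cells), 120 CPM at d1 and 312 CPM at d5 (lowest 88.9, median 272, highest 991, n = 36). At d5 every cell lay above the third quartile of d0 (20.6 CPM). It then held 205 CPM at d8 and 246 at d12, and was at 24.8 in late d12c and 5.39 at d20. Cells numbered above 48 had 44.0 CPM at d0 against 13.8 in those numbered 1 to 48, a difference smaller than that between d0 and d5.

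*Twist2*, a close relative expressed in dermal fibroblasts, had its highest mean at d12. It was at 171 CPM at d0 (lowest 4.8, median 128, highest 956) and at 751 CPM on the first day of treatment (lowest 22.8, median 723, highest 1569, n = 40). After 853 CPM at d2 it was lower, with 243 CPM at d6 and 390 at d8, and at d12 it reached 1500 CPM (lowest 92.5, median 1349, highest 4179, n = 67). The d12 cells with low and high numbers had 1533 and 1432 CPM. In late d12c its mean was 5.35 CPM (median 0, highest 124, n = 30) and at d20 4.69 CPM (median 0, highest 155, n = 38). The highest late d12c and d20 cells thus lay under the d12 first quartile of 659 CPM, and the groups overlapped only at the lowest d12 cells.

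*Snai1*, the Snail factor that acts first in many EMTs and whose protein is short-lived, had a mean of 40.0 CPM at d0 (median 8.36, highest 286) and 141 to 177 CPM at d2, d3 and d5. The d5 cells ran from 7.07 to 633 CPM with a median of 137. Its mean was 65.7 CPM at d6, 94.5 at d8 and 170 at d12 (lowest 3.23, median 74.6, highest 851), so every d12 cell had a UMI. In d8c the mean was 27.1 CPM (median 5.22, n = 20), below the means of late d12c and d20, while the median was above theirs. The d8 value rests on part of the cells, with 129 CPM in those numbered 1 to 48 and 22.8 CPM in those above, and the latter is below the d0 mean. *Snai1* kept the highest percent of its own highest mean at the end, with 32.8 CPM in late d12c (median 0, highest 199) and 32.5 CPM at d20 (median 1.48, highest 260). These means rest on 287 UMIs (255 to 322) and 217 UMIs (189 to 248).

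*Snai2* (Slug), its paralog with a role in neural crest and fibroblasts, followed another course. From 40.2 CPM at d0 (median 10.1, highest 372) it was at 30.5 at d1 and then higher at d4 (144), d6 (187) and d8 (181 CPM, median 155, highest 849, n = 62). The 2 number ranges at d4 held 195 and 88.3 CPM. At d12 its mean was 40.9 CPM with a median of 3.78, lower than at d8 while *Snai1* and both *Twist* genes stood at or near their highest. Cells above number 48 held 75.2 CPM at d12 and the others 24.1. In late d12c there were 2 UMIs in 1 of 30 cells, and none in any of 38 d20 cells, which by the limit of 3 counts allows a UMI in up to 7.89% of such cells.

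*Zeb1* and *Zeb2* repress *Cdh1* and are held down by microRNAs in epithelia. *Zeb1* was at 24.4 CPM at d0 (median 3.43, highest 245) and higher at d8, with 69.6 CPM (median 43.3, highest 416), and in d8c, with 108 CPM (median 13.1, highest 426, n = 20). The 2 number ranges at d8 held 48 and 115 CPM. It was at 21.9 CPM at d12 (median 1.91) and without a UMI in all 30 late d12c cells (by the same limit, a UMI in up to 10.0% of such cells), but at 10.4 CPM at d20, where 9 of 38 cells had a UMI. *Zeb2* ran over the first 12 days between 22.8 CPM at d2 and 74.2 CPM at d6, and the latter rests in part on its highest cell (1277 CPM, with 573 CPM in the next). It was at 3.67 CPM in late d12c and 4.88 at d20, with a median of 0 in both.

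*Prrx1*, which marks limb and dermal mesenchyme and can itself induce EMT, had its lowest mean before late d12c in d8c, with 125 CPM (median 41.5, n = 20). It had a mean of 229 CPM at d0 (lowest 0, median 212, highest 750), 172 at d3, 225 at d8 and 422 at d12 (lowest 8.07, median 370, highest 1274). Late d12c had 16.2 CPM (median 0, highest 267) and d20 5.54 CPM (median 0, highest 170). *Prrx2*, its paralog, had its highest mean at d3 with 122 CPM (median 88.3, highest 783, n = 38) from 29.7 CPM at d0 (median 6.08). It was at 39.9 CPM at d8, 8.49 in d8c, 28.3 at d12, 7.24 in early d12c and 0.258 at d20, so it was low in colony cells of both days. Without its highest cell the d8c mean was 3.35 CPM.

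*Osr1* was past 4-fold below its d0 mean on days 1, 2, 3 and 5, for which the share of all genes was not computed. At d1 *Snai2* and *Osr2* were at 76.0% and 79.0% of their d0 means. The mean of *Osr1* was 140 CPM at d0 (median 50.7, highest 686), 21.9 CPM at d1 (median 1.76, highest 173) and 4.05 CPM at d5 (median 0, highest 99.4, 7 of 36 cells with a UMI). It was higher again at d8, with 126 CPM (lowest 0, median 16.2, highest 1437) and a UMI in 59 of 62 cells, so that the d8 and d0 means did not stand apart. Cells numbered 1 to 48 at d8 held 156 CPM and the others 62.2. The means of d3 (28.3 CPM) and d4 (41.4 CPM) rest on a single cell in part and were 8.11 and 21.2 CPM without it. *Osr1* was at 25 CPM at d12 with a median of 0, and no d20 cell had a UMI. *Osr2*, which acts in palate, tooth and joints, was highest at d8, with 84.6 CPM (median 9.04, highest 989) against 15.3 CPM at d0 (median 0, highest 223). It was at 10.3 CPM at d12, 0.602 in early d12c, 7.43 in late d12c and 1.06 at d20.

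**Figure D1:**
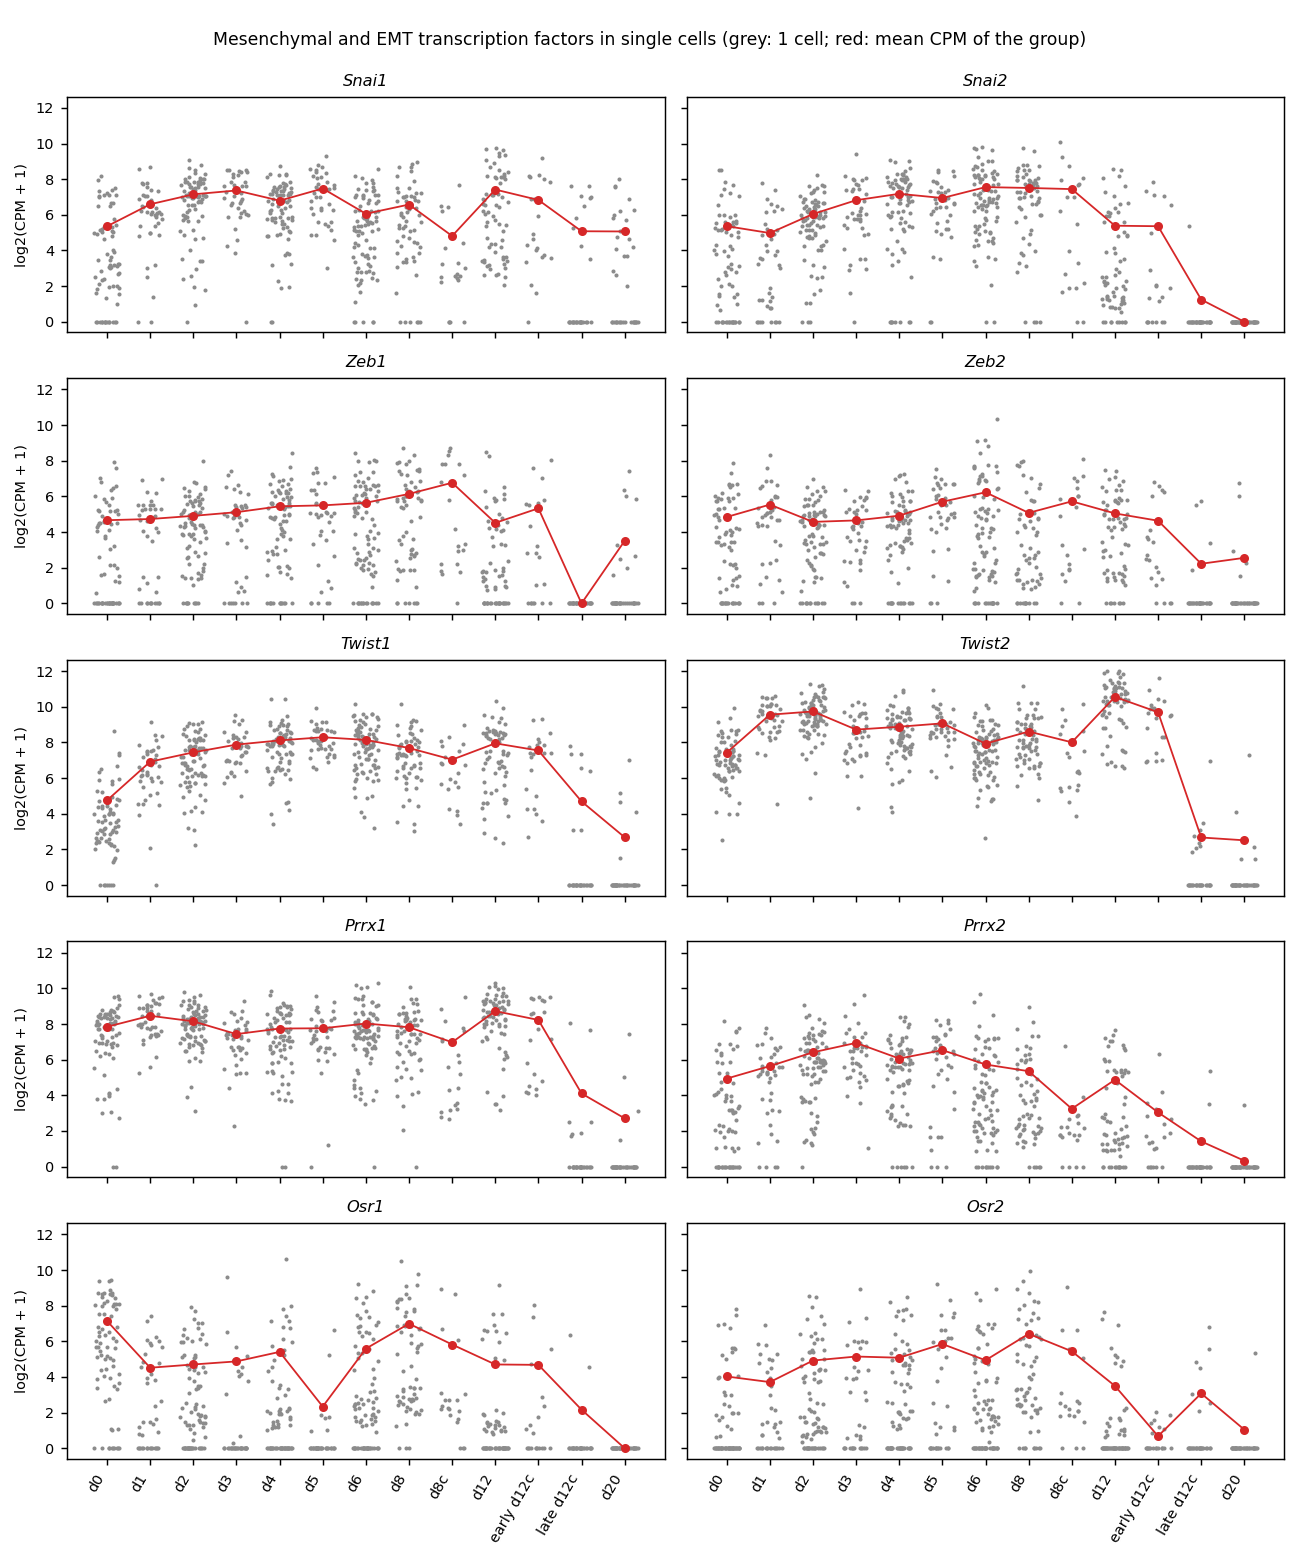
Level of each factor in every kept cell (grey points, log2(CPM + 1)) by group on the horizontal axis, with the group mean CPM on the same scale (red). Cells at 0 make up most of late d12c and d20 in every panel other than *Snai1* at d20, where 19 of 38 cells have a UMI and 12 of 38 are at 20 CPM or more.

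To give an order of loss, each factor was called lost from the first group after which its mean stayed under 10% of its own highest group mean. In this order the unpicked d12 cells stand between the colony cells of d8c and early d12c, and no factor was lost before d12. *Prrx2* was at 6.93% in d8c, and only its d12 value (23.1%) puts its loss at early d12c. *Prrx2* and *Osr2* were under 10% from early d12c, at 5.92% and 0.712%, though *Osr2* was again at 8.78% in late d12c, just inside the limit. *Snai2*, *Zeb1*, *Zeb2*, *Twist1*, *Twist2*, *Prrx1* and *Osr1* were lost from late d12c, where they stood between 0% (*Zeb1*) and 7.95% (*Twist1*). A factor lost by this rule can still stand near its MEF level. In late d12c *Twist1* was at 95.7% of its d0 mean, beside 82.0% for *Snai1*. Under a limit of 10% of the d0 mean, *Twist1*, *Snai1*, *Zeb1* and *Zeb2* were not lost. *Zeb1* was at 9.66% at d20, just inside the limit, and with a filter of 6000 detected genes it was not lost. *Snai1* was not lost, at 18.5% in late d12c and 18.3% at d20. Early d12c and d12 came from the same day, so their order is one of groups and not of time. The factors were far from their highest level at d12 to different degrees. *Osr2* (12.2%), *Osr1* (17.8%), *Zeb1* (20.3%), *Snai2* (21.9%) and *Prrx2* (23.1%) stood under 25%, *Zeb2* was at 43.3%, and *Twist1* (78.9%), *Snai1* (96.1%), *Twist2* (100%) and *Prrx1* (100%) were near or at it. By the mean of UMIs per ERCC UMI in place of CPM, *Prrx2* was lost from d8c, *Snai2*, *Osr1* and *Osr2* from d12 and *Snai1* from late d12c.

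**Figure D2:**
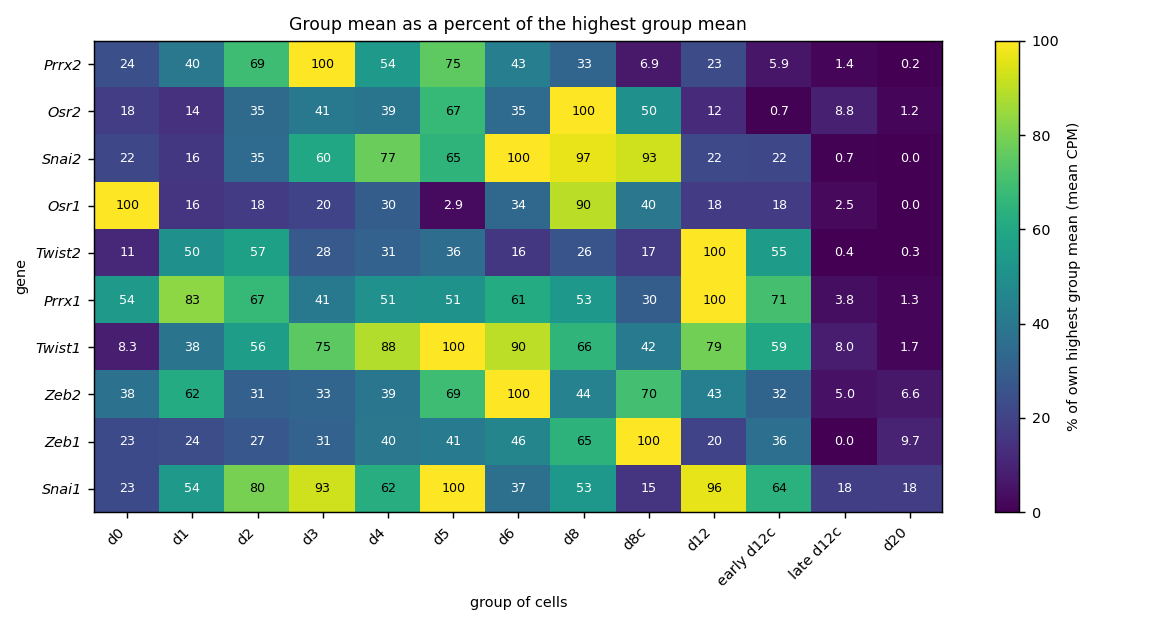
Mean CPM of each factor in each group as a percent of its own highest group mean (colour and printed value), with genes ordered by the group from which they stayed under 10%. *Osr1* is the row that is at 100% at d0 and low from d1 to d5, and *Snai1* keeps 18.3% at d20.

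The groups were then compared by the ratio of mean CPM, with a gene counted as past 4-fold when its mean was at least 5 CPM in either group. All 10 factors met this minimum in all 4 comparisons. At d8 against d0, 3 of 10 factors were past 4-fold higher, beside 8.55% of all genes, and 0 were lower, beside 5.82%. They were *Twist1* (7.89-fold, from 25.9 to 205 CPM), *Osr2* (5.53-fold) and *Snai2* (4.50-fold). In cells numbered above 48 the log2 ratios of *Snai2* (1.15) and *Osr2* (0.91) were short of 4-fold, as they were by ERCC UMIs (1.46 and 1.48). At d12 against d0, 3 of 10 were higher (11.0% of all genes) and 1 was lower (6.96%). *Twist1* was 9.50-fold, *Twist2* 8.78-fold and *Snai1* 4.26-fold higher, and *Osr1* was 5.62-fold lower. *Snai1* was just past the limit, and its log2 ratio was 1.66 with a filter of 6000 detected genes and 1.87 with no filter, both short of 4-fold. The direction of these 4 held under every scaling tried, but by ERCC UMIs none of the 3 higher ones was past 4-fold and the median log2 ratio of all genes shifted by -1.95 against that under CPM.

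Late d12c against d12 had 9 of 10 factors past 4-fold lower, beside 15.7% of all genes, and 0 higher, beside 11.1%. *Twist2* differed most, 280-fold, on 112 UMIs against 91763, which is a ratio of summed counts of 0.00838 (0.00690 to 0.0101). *Zeb1* was 60.2-fold lower, computed against a floor of 3 UMIs over the group. Its ratio of summed counts was 0, with an upper limit of 0.0380. *Snai2* was 29.8-fold, *Prrx1* 26.0-fold, *Prrx2* 16.9-fold, *Twist1* 9.93-fold, *Zeb2* 8.76-fold, *Osr1* 7.18-fold and *Snai1* 5.19-fold lower. *Osr2*, already low at d12, was 1.39-fold lower, and with no filter on cells its direction turned (log2 ratio 0.81). *Zeb2* had a log2 ratio of 0.06 with no filter and of -3.13 with it. With no filter the log2 ratios of *Twist2* (-5.93 in place of -8.13), *Zeb1* (-4.08 in place of -5.91) and *Snai2* (-3.12 in place of -4.90) were also smaller in size. So was that of *Prrx2* (-2.71 in place of -4.08), while *Prrx1* (-5.10 in place of -4.70) and *Osr1* (-3.06 in place of -2.84) went the other way. At d20 against d0, 8 of 10 were past 4-fold lower, beside 11.6% of all genes, and 0 higher, beside 10.9%. *Osr1* was 412-fold and *Snai2* 118-fold lower with their means of 0 put at the floor of 3 UMIs. Their ratios of summed counts were 0, with upper limits of 0.00318 and 0.0137. *Prrx2* (115-fold), *Prrx1* (41.3-fold), *Twist2* (36.4-fold), *Osr2* (14.4-fold), *Zeb2* (5.69-fold) and *Twist1* (4.81-fold) followed. With no filter on cells the log2 ratio of *Snai2* was -2.74 in place of -6.88, and that of *Prrx2* -4.20 in place of -6.84. Those of *Osr1* (-8.91), *Osr2* (-4.68) and *Zeb2* (-3.30) were further below 0 than with the filter. *Snai1* was 1.23-fold and *Zeb1* 2.34-fold lower at d20 than at d0, and neither direction held throughout, with log2 ratios of 0.18 for *Snai1* in cells numbered 1 to 48 and 0.35 for *Zeb1* with a filter of 6000 detected genes. *Twist1* is called here from a low start, and its log2 ratio was -1.01, short of 4-fold, when d0 and d20 cells numbered 1 to 48 were compared. It was also short of 4-fold with filters of 2000 (-1.95) and 6000 detected genes (-0.67) and from summed UMIs (-1.23). *Zeb2* was short of it in cells numbered 1 to 48 (-1.75), and *Zeb1* was past it with no filter on cells (-2.01). The comparisons of d8, d12 and d20 share the d0 cells.

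**Figure D3:**
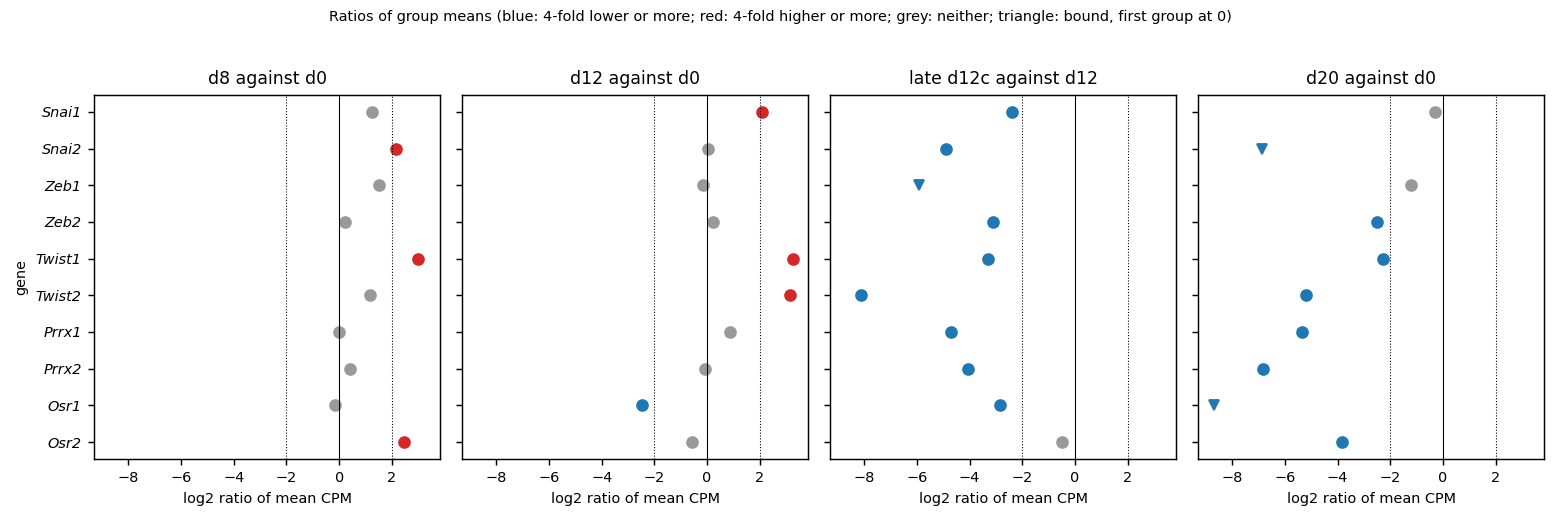
log2 ratio of mean CPM for the 10 factors in the 4 comparisons (horizontal axis), with dotted lines at 4-fold and triangles for factors at 0 in the first group, whose points are bounds. Points lie to the right of or near 0 at d8 and d12 except *Osr1* at d12, and to the left in late d12c and at d20.

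The low means of late d12c and d20 were mostly those of few cells. At d20 cell 10 held 155 CPM of *Twist2*, 170 of *Prrx1*, 170 of *Zeb1*, 128 of *Twist1* and 116 of *Snai1*, which is 87.0% of the summed CPM of *Twist2*, 80.5% of *Prrx1*, 62.4% of *Twist1* and 42.9% of *Zeb1* over 38 cells. Its fibroblast markers summed to 652 CPM, the highest of d20. In late d12c, cell 67 held 226 CPM of *Twist1*, 267 of *Prrx1*, 82.1 of *Osr1* and 41.1 of *Snai2*, and cell 49 held 203 of *Prrx1*, 124 of *Twist2*, 121 of *Snai1* and 83.9 of *Twist1*. Their fibroblast markers summed to 2238 and 839 CPM. As a percent of its d12 mean, the median factor was at 7.99% in late d12c and 1.75% at d20, beside 1.91% and 0.667% for the 10 fibroblast markers. Without the highest cell of each gene and group, the factors' median at d20 was 0.157%.

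A marker score was used to see these cells apart from their day. It is the mean log2(CPM + 1) of the 10 XEN markers minus that of the 10 fibroblast markers, and it was taken over the cells of d8 to d20. Scores under -4 were held by 152 cells, -4 to 0 by 17, 0 to 4 by 13 and 4 or over by 56 (25 of late d12c and 31 of d20). The middle ranges hold under 20 cells each. Down these ranges the mean of *Twist2* was 937, 265, 35.0 and 1.02 CPM, that of *Prrx1* 329, 75.7, 26.6 and 0.444 CPM, and that of *Twist1* 228, 75.5, 16.9 and 8.19 CPM. *Snai2* had 116, 39.2, 0.340 and 0 CPM, and *Prrx2* was already at 2.52 CPM in the range from -4 to 0, from 30.6 CPM. *Zeb1* had 51.7, 63.5, 11.2 and 1.43 CPM, and without its highest cell the second value was 40.9. *Snai1* alone was not lower in the last range than in the one before, with 129, 41.5, 15.8 and 34.3 CPM. The range from 0 to 4 held only 13 cells, the highest at 121 CPM. Without the highest cell of each range the last values were 7.01 and 30.2 CPM, and *Osr2* then was not lower either (0.357 and 1.85 CPM).

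Among the 56 cells with a score of 4 or over, 17 held at least 20 CPM of *Snai1* (7 of 25 late d12c cells and 10 of 31 d20 cells). *Twist1* and *Osr2* reached 20 CPM in 4 cells each, *Zeb2* in 2, *Zeb1* and *Osr1* in 1, and *Snai2*, *Twist2*, *Prrx1* and *Prrx2* in 0. With cells thinned to 50000 UMIs, the share with a UMI varied between draws, and it is given as the range over 11 draws. *Snai1* had a UMI in 29.4% to 35.3% of 51 cells, *Twist1* in 5.88% to 9.80%, *Twist2* and *Osr2* in 1.96% to 9.80% and *Zeb1* in 1.96% to 5.88%. For comparison, *Cdh1*, which fibroblasts lack, had a UMI in 0.676% to 4.73% of 148 thinned cells with a score under -4, and in 28.3% of 152 cells with all UMIs at a median of 670921 UMIs. With all UMIs *Snai1* was found in 23 of the 56 cells (41.1%, 28.1 to 55.0) at a median of 195480 UMIs. *Snai2* and *Prrx2* were in 0 of 56 cells. The 12 d20 cells with at least 20 CPM of *Snai1* had a median of 5540 CPM of XEN markers and 54.2 CPM of fibroblast markers, and the other 26 had 5040 and 46.6 CPM. *Cdh1* was found in 6 of the 12 and 12 of the 26.

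**Figure D4:**
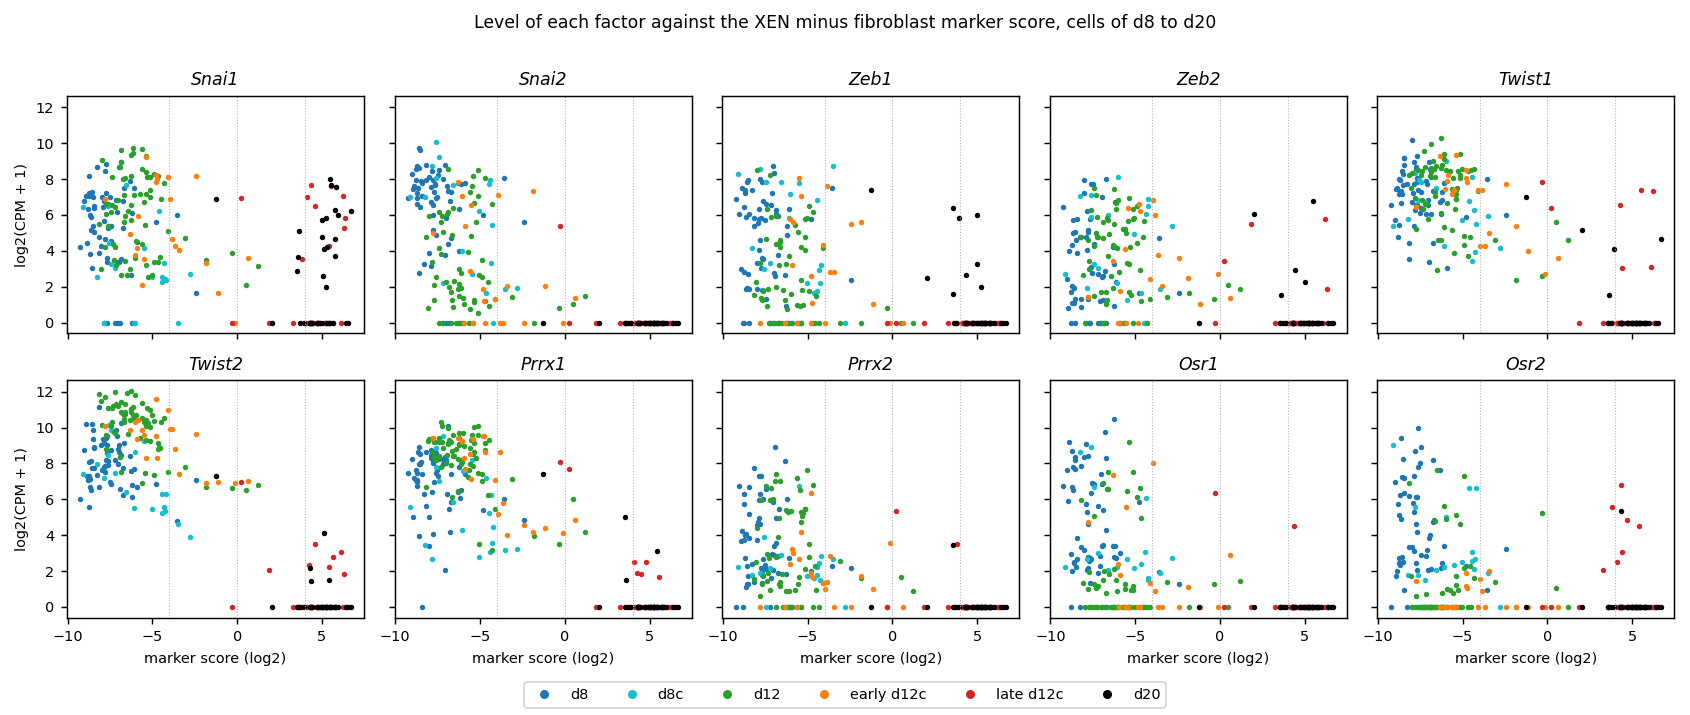
Level of each factor (log2(CPM + 1)) against the marker score (mean log2 of XEN markers minus mean log2 of fibroblast markers) for cells of d8 to d20, coloured by group, with dotted lines at -4, 0 and 4. At scores of 4 or over nearly all points lie at 0, other than in *Snai1*, where 23 of 56 cells have a UMI.

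The number of factors at 20 CPM or more in the same cell was 5 in the median d0 cell, 7.50 at d5, 7 at d8 and 5 at d12. Before late d12c every kept cell had at least 1 such factor. In late d12c 16 of 30 cells had none (53.3%, 34.3 to 71.7), and at d20 22 of 38 (57.9%, 40.8 to 73.7). Of the 56 cells with a score of 4 or over, 35 had none, 15 had 1 and none had over 3.

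**Figure D5:**
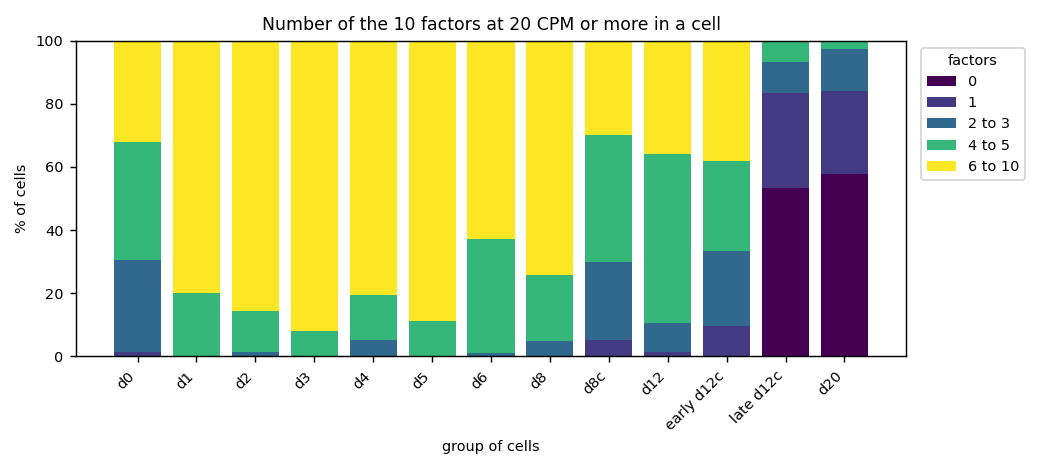
Percent of cells (bars, stacked to 100%) in each group that hold 0, 1, 2 to 3, 4 to 5 or 6 to 10 of the factors at 20 CPM or more. Bars for 0 factors appear only in late d12c (53.3%) and d20 (57.9%).

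Genes that EMT factors act on or act with were taken from lists. Of 20 mesenchymal effector genes, all were tested at d8 against d0. Of these, 9 were past 4-fold lower and 1 higher, beside 5.82% and 8.55% of all genes. Among those lower were the intermediate filament gene *Vim* (326 against 1311 CPM), fibronectin *Fn1* (85.9 against 368), smooth muscle actin *Acta2* (676 against 3668), *Tagln*, *S100a4*, *Axl* and *Cd44*. The one higher was the matrix protease *Mmp2* (225 against 49.8 CPM). So at d8 some effector genes were below MEFs while none of the 10 factors was past 4-fold lower. The median log2 ratio was -1.19 for the effectors, 1.22 for the factors and 0.04 for all genes. At d20, 14 of 20 effectors were lower and 0 higher, beside 11.6% and 10.9% of all genes. Among the lower were *Acta2* (4.46 CPM), *S100a4* (3.53 CPM) and the collagen cross-linking enzyme *Lox*, at 0 CPM from 457 CPM at d0.

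Of the epithelial genes, 10 of 20 reached the minimum at d12 against d0. Of these, 9 were past 4-fold higher and 0 lower, beside 11.0% and 6.96% of all genes. The tight junction gene *Cldn4* had 44.1 CPM at d12 and 0 at d0, *Cldn7* 21.8 and 0, *Epcam* 40.5 and 0.560, and *Cdh1* 17.5 and 0. These genes were thus present in the d12 mean, where *Snai1*, *Twist1* and *Twist2* were past 4-fold higher than in MEFs. Of the d12 cells, however, 62 scored under -4, 3 from -4 to 0 and 2 from 0 to 4. In all 152 cells of score under -4, *Epcam* had a mean of 2.28 CPM and *Cdh1* 0.584 CPM. The 17 cells from -4 to 0, of which 8 were early d12c and 3 d12, had 94.1 and 50.3 CPM. Without the highest cell these were 58.3 and 17.9 CPM. The d12 means of *Epcam* and *Cdh1* thus do not show their level in most d12 cells. At d20, 12 of 13 tested epithelial genes were higher, beside 10.9% of all genes. *Krt7*, a keratin also of MEFs (32.7 CPM at d0), was 7.07-fold lower. Genes whose windows are shown above had means at d0 and d20 of 0.560 and 284 CPM (*Epcam*), 0.202 and 99.8 (*Cldn6*), 0 and 45.8 (*Crb3*), and 5.21 and 1155 (*Krt8*).

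Of 14 partners, inhibitors and corepressors, 12 were tested at d20 against d0. Only *Id4*, an inhibitor of helix-loop-helix dimers, was past 4-fold, at 0 from 19.9 CPM. This 1 of 12 stands beside 11.6% of all genes lower and 10.9% higher, so it is no finding about the list. *Tcf4*, an E protein that pairs with Twist factors, was 5.77-fold higher at d8 and 6.56-fold higher at d12 than at d0. It was 9.73-fold lower in late d12c (76.0 CPM) than at d12 (739 CPM). *Tcf4* was the 1 of 12 tested partners past 4-fold higher at d8 and at d12, beside 8.55% and 11.0% of all genes. In late d12c it was the 1 of 11 past 4-fold lower, beside 15.7%, so these too are no finding about the list. Of 30 other mesenchymal transcription factors, 14 were tested at d20, where 6 were lower and 2 higher (beside 11.6% and 10.9% of all genes). *Ebf2* (0.0475 against 15.9 CPM) and *Meox2* (0 against 14.8 CPM) were lower, and the higher ones were *Msx2* (66.6 against 3.87 CPM) and *Foxf2* (13.2 against 1.76 CPM).

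The paralogs of each pair differed in their courses. *Snai1* stood at 170 CPM at d12 when *Snai2* was at 40.9, each as a mean that was 96.1% and 21.9% of its own highest. *Twist1* and *Twist2* were highest at d5 and d12, *Prrx1* and *Prrx2* at d12 and d3, *Osr1* and *Osr2* at d0 and d8, and *Zeb1* and *Zeb2* at d8c and d6. Across the thinned cells of a time point, the Spearman correlation of *Twist1* with *Twist2* was above 0 at 10 to 12 of 12 time points over 11 draws of the thinning, with a median over time points of 0.147 to 0.256. The highest (0.801 in the draw used elsewhere) was at d12c, which joins early and late cells. For the other pairs the median ran from -0.0702 (lowest draw, *Osr1* and *Osr2*) to 0.154 (highest draw, *Snai1* and *Snai2*). The ranges of the *Twist* and *Snai* pairs thus overlapped. With all UMIs the median was 0.182 for the *Twist* pair and 0.246 for the *Snai* pair. Such weak values in sparse counts are no finding, and no pair stands apart from the others by them. Cells of a time point share their day, depth and possibly their batch.

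Over the 12 time points, and among 8112 genes that reached a mean of 20 CPM in any, the genes whose log2(mean CPM + 1) correlated most with *Twist1* were *Baalc* (Pearson r = 0.987) and the retinoic acid binding protein gene *Crabp1* (0.984). *Prrx1* was most like the matrix gene *Efemp1* (0.981), *Snai2* like *C1qtnf2* (0.981), *Twist2* like the prostaglandin synthase gene *Ptges* (0.971) and *Osr2* like *Lix1l* (0.967). The best values of *Snai1* (*Lrp10*, 0.946), *Zeb1* (*Stambp*, 0.932), *Osr1* (*Cdc42ep3*, 0.927) and *Zeb2* (*Slit2*, 0.923) were lower. All were picked as the highest among 8112 genes over only 12 points, and such picking by itself favours high values. The d12c point joins early and late cells. Whether these genes are regulated together was not tested.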

How the data were processed

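Single cells picked by hand were lysed, their cDNA amplified and the libraries sequenced with paired-end reads. As deposited, the values are counts of UMIs per gene and cell, made by the authors from alignments to mm9 transcripts, with reads that share a UMI counted as 1. The aligner, its version and any filter on cells are not given in the sources used here. The table named 808 cells by time point and number. It held 92 ERCC spike-in RNAs, 26 names turned into dates and 4 entries of repeated names, and the spike-in RNAs and repeated names were left out. The largest count was 129000.

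Kept cells had at least 4000 detected genes, between 17633 and 6004864 UMIs and a median of 510306. CPM were averaged over cells, log2 values used a pseudocount of 1, and thinning to 50000 UMIs left out 23 kept cells. The seed of the thinning was changed once after values had been seen, for a reason of format, and the range over 11 seeds that include both is therefore given. A mean of 0 was put at a floor of 3 UMIs over the group in ratios. Called genes were past 4-fold with a mean of at least 5 CPM in either group. Cells are not replicates, so no test was run, and exact Poisson and Clopper-Pearson intervals cover counting error only. The members and gene lists, and the split of d12c, were chosen with earlier results of these data known. All 10 members are named, other genes of a list by the largest changes or as known members of the list, and like genes by the 2 highest correlations each. Examples of list genes beyond the 2 with the largest change in each direction were chosen after their values were seen, as were the 4 epithelial promoters shown. Alternatives covered the filter on cells, scaling (edgeR 4.0.16 and DESeq2 1.42.0 factors of pooled profiles under R 4.3.3, and ERCC UMIs), averaging, depth, minimum level and loss threshold. The software was Python 3.11.15, and its packages were pandas 2.3.3, numpy 2.4.6 and scipy 1.17.1. Positions are from GENCODE M1 (mm9), counted from 1, and promoter windows from RefSeq (GRCm38.p6).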

Additional observations from a re-analysis of the deposited data

How the results depend on the processing

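No paired analysis was possible because the cells carry no replicate number or batch, and likewise no replicate could be left out. Of 290 values recomputed under an alternative, 242 stayed within 1.5 times of the value reported. The other 48 are given below, and other than for the minimum mean, which sets how many genes can be counted, their cause was not tested. Some of the 290 could not move. Keeping only late d12c and d20 cells of score 4 or over left the d8 and d12 comparisons with d0 unchanged. Removing the minimum mean could not change the counts of factors, since all 10 met it. The counts of factors past 4-fold differed by more with UMIs per ERCC UMI, where 1 in place of 3 was higher at d8 against d0, and at d12 against d0 2 in place of 1 were lower and 0 in place of 3 higher. That scaling shifted the median log2 ratio of all genes by -0.94, -1.95, -0.91 and -2.78 in the comparisons of d8, d12, late d12c and d20. TMM and DESeq2 factors shifted it by at most 0.26 in size and left these counts within 1.5 times.

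Over all genes, lower and higher counts with ERCC UMIs were 1515 and 488 (d8, from 578 and 849), 5346 and 451 (d12, from 692 and 1093), 2506 and 525 (late d12c, from 1599 and 1134) and 7167 and 341 (d20, from 1180 and 1105). With no minimum mean they were 1955 and 2247, 1905 and 2690, 2454 and 2672, and 1942 and 2870 in the same order. With a minimum of 20 CPM they were 266 and 430, 318 and 622, 898 and 550, and 568 and 516. By differences of mean log2(CPM + 1) past 2 they were 287 and 467 at d8, 403 and 693 at d12, and for higher genes 541 in late d12c and 410 at d20. Among cells numbered above 48, a choice made after seeing the data, 1047 genes were lower at d8.

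In the order of groups used, no factor was lost before d12 under CPM and 10% of the highest mean. With ERCC UMIs 1 was, with a limit of 25% 1, with 50% 2 and with medians in place of means 2. Against 10% of the d0 mean 5 in place of 9 factors were lost by late d12c. *Twist2* and *Prrx1* were lost from late d12c under all 14 alternatives, *Twist1* under 13 and *Osr2* kept its group under 6. The median factor's percent of its d12 mean in late d12c (7.99%) was 4.71% with at least 6000 detected genes, 3.23% without the highest cells and 1.85% in cells of score 4 or over, a choice also made after seeing the data. At d20 (1.75%) it was 6.38% with no filter on cells, 6.97% and 5.07% with at least 2000 and 6000 detected genes, 2.88% from summed UMIs, 0.157% without the highest cells and 0.188% in cells of score 4 or over. Of 200 means within a number range, 48 differed by over 1.5 times from the mean of their time point. At d1, d3, d5 and d8c all kept cells were numbered 1 to 48, so these means could not differ. At the other times each range is part of the mean it was set against, which damps differences between ranges. Of the 5 median correlations within pairs, 2 differed by 0.1 or more with all UMIs in place of thinned ones. At the median depth of d20 (195480 UMIs) a gene without a UMI in a single cell may be present at a low level, so shares of cells at 0 are limited by depth.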
